A study of Mus musculus with 8 samples.

Results

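The 10 genes described here are listed for quiescent muscle stem cells (MuSCs, also called satellite cells). They are Pax7, Pax3, Calcr, Spry1, Cd34, Sdc3, Sdc4, Foxo1, Foxo3 and Chrdl2. The name quiescence genes, used below, does not mean that they are limited to quiescent cells. They and all gene lists below were chosen by name, with earlier results of these data known. The 10 were matched to the Ensembl identifiers of the deposited counts, where all 10 were among 55487 genes listed. Of those genes, 12060 passed a filter on low counts and were tested for a difference, and 8 of the 10 quiescence genes were among them. Calcr and Chrdl2 had too few counts to be tested.

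MuSCs from the hindlimb muscles of aged mice were sorted by FACS and cultured for 72 hours in growth medium with nicotinamide and pyridoxine (NAM/PN) or with vehicle. Nicotinamide is a form of vitamin B3 and pyridoxine a form of vitamin B6. The labels give 1 mM for the combination and 1% DMSO for the vehicle, and they describe 8 mice in 4 pools of 2, so that pool numbers 1 to 4 each occur with both conditions. RNA was read from the 3′ end of transcripts in 8 libraries, 4 per condition. The mice were male wild-type C57BL/6JRj animals, labelled old, and the methods give 23 to 24 months for the aged mice used in MuSC culture. The methods passage with that age describes a longer culture and less DMSO than the labels do. No young or freshly sorted cells are among these 8 libraries, so expression at 72 hours was not set against the quiescent state. The sort kept cells without CD31, CD45, CD11b and Sca1 and with CD34 and integrin α7, so the protein of 1 of the 10 genes, Cd34, had been used to select the cells before culture.

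In resting muscle, MuSCs lie quiescent between the myofiber and its basal lamina, and PAX7 maintains their identity. Quiescence is held by receptors and surface proteoglycans that sense the niche, by inhibitors of growth factor signaling and by FOXO transcription factors. When the cells are activated by injury or culture, they lose several quiescence transcripts, express MYOD, divide and then either differentiate through MYOGENIN or return to quiescence.

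The promoters of 8 of the 10 genes were found in the RefSeq annotation of GRCm38.p6, taken as 250 bases before to 50 bases after the transcription start. Those of Pax7, the gene that defines the lineage, and of Cd34, the tested gene with the smallest p-value among the 10, are shown 5′ to 3′ with each CG dinucleotide in capitals. The Pax7 window lies at chr4:139832919-139833218 on the minus strand and the Cd34 window at chr1:194938571-194938870 on the plus strand. The Pax7 window lies inside the limits of the gene given below, which come from another annotation.
Pax7: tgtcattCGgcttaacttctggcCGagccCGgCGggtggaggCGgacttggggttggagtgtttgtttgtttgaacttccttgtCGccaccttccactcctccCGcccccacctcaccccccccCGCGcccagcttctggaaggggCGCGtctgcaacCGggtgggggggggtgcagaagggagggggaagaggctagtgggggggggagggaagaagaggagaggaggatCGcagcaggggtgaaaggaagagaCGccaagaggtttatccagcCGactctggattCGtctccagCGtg
Cd34: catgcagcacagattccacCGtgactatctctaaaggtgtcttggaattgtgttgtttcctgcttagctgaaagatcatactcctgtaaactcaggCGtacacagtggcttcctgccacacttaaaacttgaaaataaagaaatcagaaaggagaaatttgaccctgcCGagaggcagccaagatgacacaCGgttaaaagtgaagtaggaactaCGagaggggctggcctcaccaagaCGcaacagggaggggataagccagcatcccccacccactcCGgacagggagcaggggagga
The Pax7 promoter held 17 CG dinucleotides and 63.7% G and C, and the Cd34 promoter held 7 and 50.0%. Over 32851 mouse promoters of this length the median was 7 CG dinucleotides and 52.7% G and C, so the Cd34 window was near the median of both measures and the Pax7 window was above it. Among the other matched genes, CG dinucleotides numbered 22 at Sdc4, 29 at Spry1, 31 at Foxo1, 35 at Foxo3 and 44 at Sdc3, and 4 and 29 at the pair of starts of Calcr. Neither GTAAACA (the FoxO core), CAGCTG (an E-box) nor TATAAA was found on either strand in any of these windows. The shares of all promoters with these letters were 3.65%, 16.3% and 13.6%. CCAAT occurred in Spry1 and Foxo1, against 37.4% of all promoters. GGGCGG (a GC box) occurred in Pax7, Spry1, Sdc3, Sdc4, Foxo1, Foxo3 and a start of Calcr but not in Cd34, against 35.7%. A match of letters is a description of sequence only.

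Each library held 6472484 to 10163101 counts, and 3 counts, taken as the limit of detection for counting error, corresponded to between 0.28 and 0.457 counts per 1000000 (CPM, with libraries scaled to their normalized size). Of 10 markers of satellite cells, 8 were abundant enough to be tested, with a summed level of 2918 to 3371 CPM with vehicle and 2335 to 2929 CPM with NAM/PN. The missing pair was Calcr and Chrdl2, which, like Pax7 and Sdc4 of that list, are also among the 10 quiescence genes. Myod1 and Des made the largest part of the satellite cell sum, at 1366 and 813 CPM on average with vehicle. Of the markers of other cells, 8 of 10 immune and 3 of 6 Schwann cell markers were at 0 in every library. Endothelial markers summed to at most 29.5 CPM. Fibro-adipogenic and mural lists summed to more, 284 to 349.5 and 286 to 611 CPM with vehicle, and they are given with Cd34. Acta2 made the largest part of the mural sum, at 368 CPM on average with vehicle. Col3a1 and Gsn made that of the fibro-adipogenic sum, at 155 and 134 CPM. Notch3, Cspg4, Col1a1 and Col1a2 averaged 9.66 to 37.6 CPM with vehicle. Rgs5, Pdgfrb, Kcnj8, Tagln and Dcn averaged under 1 CPM. A pair of libraries stood apart. In NAM/PN library 4 the fewest genes were detected (12483), and the shares of counts from ribosomal RNA and mitochondrial genes were the lowest, at 5.22% and 2.56%. Vehicle library 3 had 18.7% of its counts on a ribosomal RNA gene, against 5.22% to 11.6% in the others.

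At 72 hours, 8 of the 10 quiescence genes were present at 1 CPM or more in all 4 vehicle libraries, and 7 of the 10 in all 4 NAM/PN libraries. Among 19244 genes with at least 1 count, the same was true of 53.6% with vehicle and 51.1% with NAM/PN. Pax7, Spry1, Cd34, Sdc3, Sdc4, Foxo1 and Foxo3 passed in both conditions. Pax3 passed with vehicle only, because NAM/PN library 1 had 0.616 CPM. Calcr and Chrdl2 passed in neither condition. Average expression placed Pax7 at percentile 92.4 of all tested genes, with Sdc4 at 91.6, Sdc3 at 90.2, Cd34 at 80.7, Foxo1 at 73.0, Foxo3 at 62.8, Spry1 at 30.3 and Pax3 at 17.7. These places are in CPM of 3′ reads, which were not divided by transcript length because each transcript gives reads at its end alone.

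**Figure D1:**
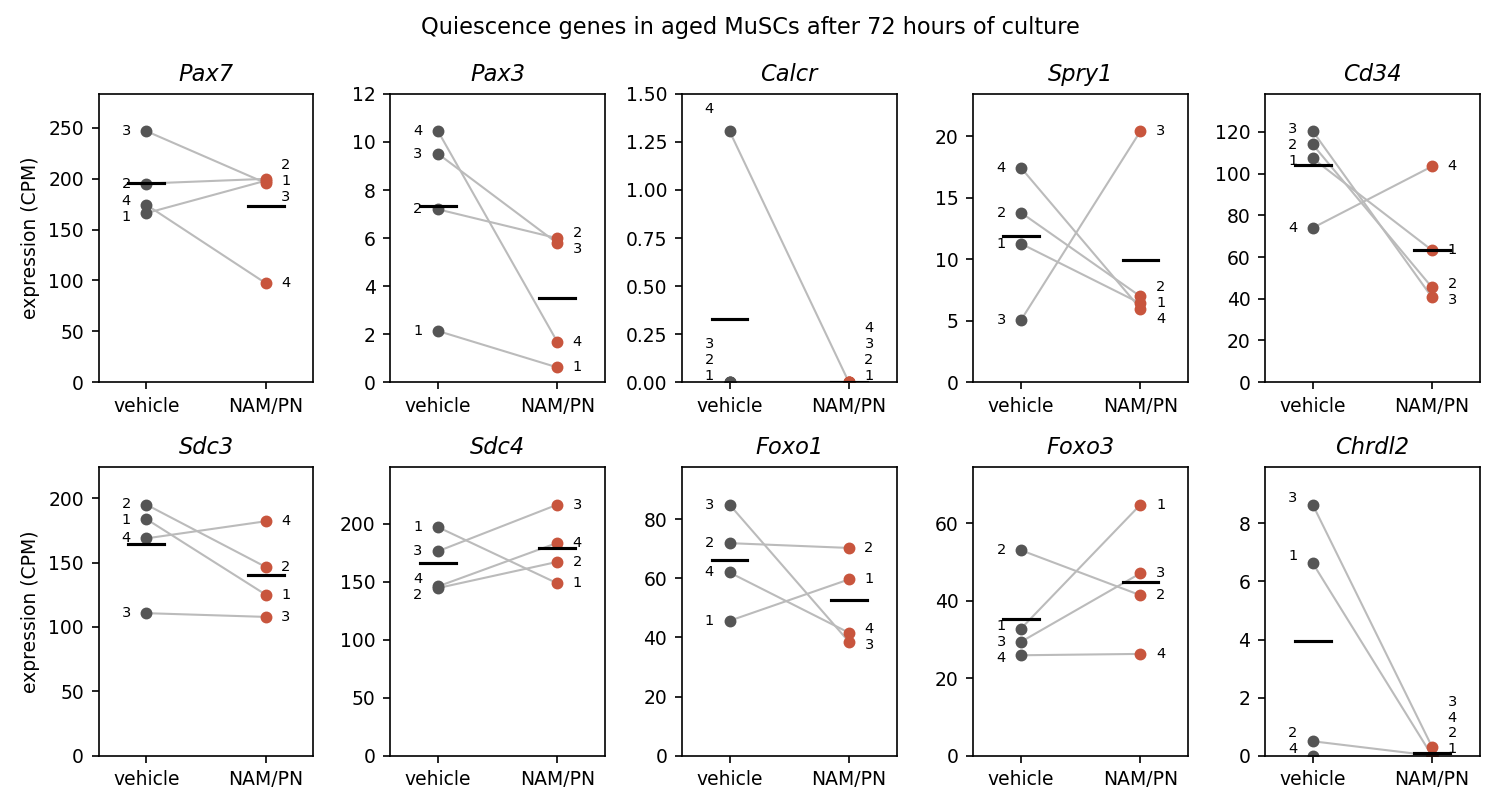
Expression (CPM, y axis from 0 in each panel) of the 10 quiescence genes in 4 vehicle and 4 NAM/PN libraries. Points are libraries numbered by pool, lines join the libraries of the same pool and bars are means. NAM/PN library 4 is the lowest for Pax7 and the only NAM/PN library above its vehicle partner for Cd34.

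To ask whether NAM/PN shifted these genes, the 2 conditions were compared with edgeR's quasi-likelihood test across all 12060 genes. None of the 8 tested quiescence genes passed an adjusted p of 0.05 (Benjamini-Hochberg over all tested genes), and none was called by DESeq2. Across all genes 154 passed, which is 1.28%, with 0.282% higher and 0.995% lower. At an unadjusted p under 0.05, 1 of the 8 passed (Cd34), against 9.28% of all genes. The libraries of the 2 conditions overlapped for each of the 8, and the share of all genes without overlap was 7.21%. At that share, overlap for all 8 does not set them apart from other genes. The log2 fold change was below 0 for 6 of the 8 and above 0 for Sdc4 and Foxo3, with a median of -0.24 against -0.0022 for all tested genes, of which 50.2% were below 0. In RNA from whole cultures, fewer cells of a type and less RNA per cell cannot be told apart.

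Pax7 encodes the paired-box transcription factor that defines the satellite cell lineage (ENSMUSG00000028736, chromosome 4 of GRCm38, 139737062 to 139833528, minus strand). It was expressed at 166, 195, 247 and 174 CPM in vehicle libraries 1 to 4 and at 198, 199.9, 196 and 97.3 CPM in NAM/PN libraries 1 to 4. NAM/PN libraries 1, 2 and 3 were close together and inside the vehicle range, and NAM/PN library 4 lay below every other library. The means were 196 ± 36.2 with vehicle and 173 ± 50.3 with NAM/PN (CPM, SD, n = 4 each), with a higher value in 2 pools and a lower value in 2. On the log2 scale the fold change was -0.18, with a standard error of 0.22 and an edgeR adjusted p of 0.924. The 95% interval of the fold ran from 0.641 to 1.22. Without NAM/PN library 4 the log2 fold change was 0.016 (edgeR adjusted p = 0.993). The low detected gene number and low ribosomal and mitochondrial shares of that library moved with its low Pax7, and their part in it was not tested.

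Pax3, the paralog of Pax7 that some adult MuSCs also express (ENSMUSG00000004872, chromosome 1, 78101267 to 78197134, minus strand), was near the lower end of the tested genes. Its levels were 2.13, 7.20, 9.51 and 10.5 CPM with vehicle and 0.616, 5.99, 5.79 and 1.68 CPM with NAM/PN, from 5 to 96 counts per library. The value was lower with NAM/PN in 4 of 4 pools, but pool 1 was the lowest in both conditions and the groups overlapped. The log2 fold change of Pax3 was -1.06 with a standard error of 1.01, and its edgeR adjusted p was 0.878. The interval for the fold, 0.111 to 2.08, allows a large fall as well as a rise. Of the 7 other Pax genes none could be tested, 6 were at 0 in every library, and Pax5 reached 11 counts in 1 library.

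Foxo1 encodes a forkhead transcription factor held in the cytoplasm by AKT (ENSMUSG00000044167, chromosome 3, 52268336 to 52353221, plus strand). Its expression was 45.6, 71.8, 84.9 and 61.9 CPM with vehicle and 59.6, 70.2, 38.5 and 41.6 CPM with NAM/PN. The groups overlapped across most of their range, and 3 of 4 pools were lower with NAM/PN. Foxo1 differed by -0.33 on the log2 scale (standard error 0.26, edgeR adjusted p = 0.822, fold interval 0.545 to 1.16). Foxo3, a related factor required for satellite cell self-renewal (ENSMUSG00000048756, chromosome 10, 42181841 to 42276755, minus strand), had 32.8, 53.0, 29.4 and 25.9 CPM with vehicle. With NAM/PN it had 64.8, 41.4, 47.1 and 26.3 CPM, so pool 4 gave nearly the same value in both conditions and pool 2 alone was lower. Foxo3 differed by 0.35 (standard error 0.32, edgeR adjusted p = 0.869, fold interval 0.804 to 2.01). The point estimates of this pair of paralogs were opposite in sign, and neither was larger than the spread between libraries.

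Among the relatives and targets of these factors, Foxo4 was expressed at 50.6 ± 18.8 and 43.5 ± 10.9 CPM (SD, n = 4 each), with a log2 fold change of -0.22 (edgeR adjusted p = 0.936), and Foxo6 had too few counts. In a list of 20 FoxO target genes, 19 were tested, 2 were called lower and 0 called higher. Log2 fold changes were below 0 for 12 and above 0 for 7, with a median of -0.16. The 2 were Fbxo32 and Trim63, which encode the muscle ubiquitin ligases atrogin-1 and MuRF1 and are also expressed in differentiating muscle cells. Fbxo32 had 41.6, 46.7, 68.9 and 27.5 CPM with vehicle and 6.28, 10.5, 21.2 and 3.83 CPM with NAM/PN (log2 fold change -2.16, edgeR adjusted p = 0.0182). Without vehicle library 2 or 3 or NAM/PN library 1 or 2, that p was 0.0776, 0.0738, 0.081 and 0.0608, and without pools 1 and 2 it was 0.18 and 0.206. Trim63 had 22 to 83 counts in each vehicle library and 0 in every NAM/PN library, at least 17.6-fold lower when each NAM/PN library is set at 3 counts. Its edgeR adjusted p of 0.0344 became 0.14 under the replicate block by pool, and it was between 0.0615 and 0.188 without vehicle library 1, 2, 3 or 4 or NAM/PN library 1, 2 or 3, and between 0.113 and 0.276 without any 1 pool. The list had 1 called gene with the block and 0 without vehicle library 3.

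Calcr encodes the calcitonin receptor, which keeps satellite cells quiescent through cAMP signaling (ENSMUSG00000023964, chromosome 6, 3685680 to 3764714, minus strand). It had 12 counts in vehicle library 4, or 1.31 CPM, and 0 in the other 7 libraries. Both conditions were at or under the limit of detection on average, so no fold is given. The microRNA genes Mir489 and Mir653 lie within Calcr on the same strand and had 0 counts. In a list of 12 partners of the receptor, 8 were tested and 0 were called. All 8 log2 fold changes were below 0, with a median of -0.40, against 50.2% below 0 and a median of -0.0022 for all tested genes. Without normalization factors or without NAM/PN library 4, 7 of 8 were below 0. The smallest p in this list belonged to Lats2, a kinase of the Hippo pathway, at 57.8 ± 9.38 and 31.0 ± 9.77 CPM (SD, n = 4 each) and a log2 fold change of -0.90 (edgeR adjusted p = 0.169).

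Spry1 encodes Sprouty1, an inhibitor of FGF receptor signaling needed for the return to quiescence (ENSMUSG00000037211, chromosome 3, 37639947 to 37644598, plus strand). It was expressed at 11.3, 13.8, 5.06 and 17.4 CPM with vehicle and at 6.40, 6.97, 20.4 and 5.98 CPM with NAM/PN. Pool 3 was the lowest vehicle library and the highest NAM/PN library, while the other 3 pools were lower with NAM/PN. Spry1 differed by -0.26 on the log2 scale with a standard error of 0.60 (edgeR adjusted p = 0.97), and the fold interval was 0.347 to 2.01. Without pool 4 the value was 0.16, and without NAM/PN library 3 it was -0.88 (edgeR adjusted p = 0.981 and 0.81). A gene of unknown status on the other strand, Gm42922, overlaps the exons of Spry1 and had up to 43 counts in 3 libraries. Whether counting used strand is not given, so reads of this pair may be mixed. Genes overlapping the other quiescence genes had at most 10 counts in a library.

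The relatives of Spry1 had log2 fold changes above 0 for 5 of 5 tested, and 4 of 5 without NAM/PN library 4, with 0 called and a median of 0.36. Of all tested genes 50.2% were below 0. Spred1, which also restrains RAS signaling, was higher in 4 of 4 pools, at 65.8, 88.7, 62.5 and 54.5 CPM with vehicle and 101, 120.1, 100.3 and 98.7 CPM with NAM/PN. Its 2 groups did not overlap, and its log2 fold change was 0.63 (standard error 0.21, edgeR adjusted p = 0.203). Spry2 was at 142 ± 30.7 and 178 ± 10.9 CPM and Spry4 at 5.87 ± 0.713 and 14.2 ± 10.4 CPM (SD, n = 4 each), with log2 fold changes of 0.33 and 1.27. Spred2 and Spred3 differed by 0.36 and 0.35. Spry3 had no row among the matched identifiers.

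Cd34 encodes a sialomucin of the cell surface found on satellite cells, endothelial cells and fibro-adipogenic progenitors (ENSMUSG00000016494, chromosome 1, 194938819 to 194961279, plus strand). It was expressed at 107, 114, 120.4 and 74.0 CPM with vehicle and at 63.3, 45.4, 40.7 and 103 CPM with NAM/PN. Pools 1, 2 and 3 were lower with NAM/PN and pool 4 was higher, and pool 4 held both the lowest vehicle value and the highest NAM/PN value, so the groups overlapped. The means were 104 ± 20.7 and 63.2 ± 28.6 CPM (SD, n = 4 each). On the log2 scale Cd34 differed by -0.71 with a standard error of 0.27, and the fold interval was 0.412 to 0.902. The unadjusted p was 0.016 and the edgeR adjusted p was 0.331. A two-sided exact permutation test over the 70 assignments of libraries gave p = 0.0571, where 0.0286 is the smallest possible.

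The result for Cd34 varied with the pool left out. Without pools 1, 2 and 3 in turn, the log2 fold change was -0.70, -0.54 and -0.48 (edgeR adjusted p = 0.68, 0.868 and 0.685). Without NAM/PN library 4 the log2 fold change was -1.06 (edgeR adjusted p = 0.0266), and without pool 4 it was -1.19 (edgeR adjusted p = 0.0281), both past the threshold. Over 20 alternatives the log2 fold change was between -1.19 and -0.48 and the adjusted p between 0.0266 and 0.868. Of 10 endothelial markers 1 was tested, Egfl7, with a log2 fold change of 1.02 (edgeR adjusted p = 0.688), and Cldn5, Emcn, Flt1 and Tie1 were at 0 in every library. The summed endothelial level was 3.46 to 25.1 CPM with vehicle and 9.85 to 29.5 CPM with NAM/PN, where library 4 was the highest. Of 10 fibro-adipogenic markers 4 were tested, and Pdgfra, Lum and Dpt were at 0 in every library. Their summed level was 284 to 349.5 CPM with vehicle and 86.5 to 1233 CPM with NAM/PN, where library 4 was the lowest. Gsn and Col3a1 of that list were called lower (edgeR adjusted p = 0.000578 and 0.00255), and Col1a1, named after its values were seen, reached 486 and 1032 CPM in NAM/PN libraries 1 and 2 against at most 41.3 CPM elsewhere. Of 10 mural cell markers 3 were tested, Acta2 was called lower (edgeR adjusted p = 0.000147) and Myh11 and Higd1b were at 0 throughout. The part of other cell types in the level of Cd34 was not tested. Podxl, a relative of Cd34, had a log2 fold change of 0.94 (edgeR adjusted p = 0.73), and Podxl2 had too few counts.

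**Figure D2:**
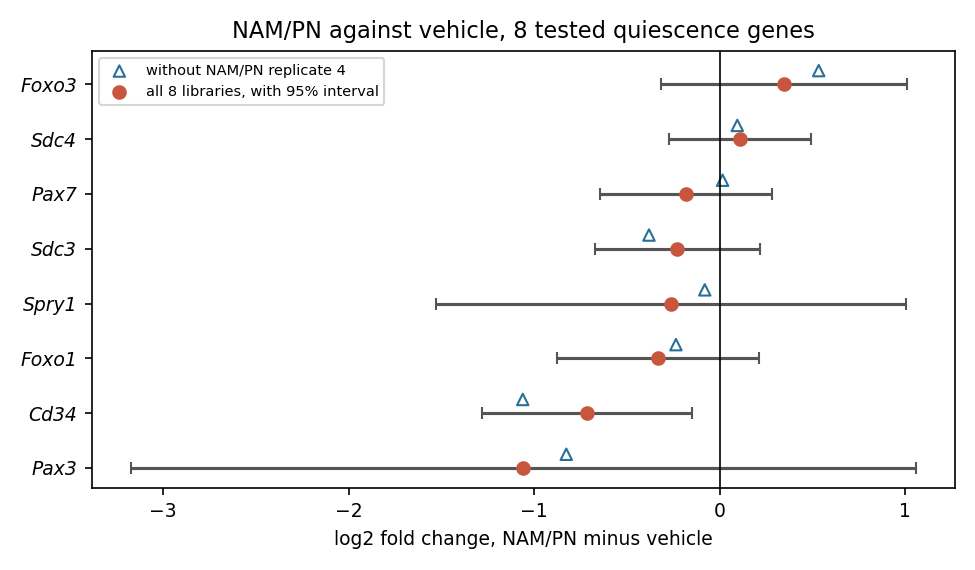
Log2 fold change of NAM/PN against vehicle (x axis) for the 8 tested quiescence genes. Filled points with bars are the estimates from all 8 libraries with 95% intervals, and open triangles are the estimates without NAM/PN library 4. The interval of Cd34 alone lies below 0, and its triangle is farther from 0, while the triangle of Pax7 is at 0.016.

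Sdc3 and Sdc4 encode syndecans, transmembrane heparan sulfate proteoglycans that bind growth factors and mark satellite cells. Sdc3 (ENSMUSG00000025743, chromosome 4, 130792537 to 130826319, plus strand) had 184, 195, 111 and 169 CPM with vehicle and 125, 147, 108 and 182 CPM with NAM/PN. Pool 3 was the lowest in both conditions, and pool 4 alone was higher with NAM/PN. For Sdc3 this was a log2 fold change of -0.23 (standard error 0.21, edgeR adjusted p = 0.873, fold interval 0.627 to 1.16). Sdc4 (ENSMUSG00000017009, chromosome 2, 164424247 to 164443887, minus strand) had 197, 145, 176 and 146 CPM with vehicle and 149, 167, 217 and 184 CPM with NAM/PN. It was higher in 3 of 4 pools and lower in pool 1, with overlapping groups. The difference of 0.11 had a standard error of 0.18 (edgeR adjusted p = 0.957), and its fold interval was 0.826 to 1.41.

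The other syndecans were also present. Sdc1 was at 33.1 ± 11.2 and 48.2 ± 12.1 CPM and Sdc2 at 101 ± 11.8 and 70.7 ± 14.3 CPM (SD, n = 4 each), with log2 fold changes of 0.54 and -0.51 and edgeR adjusted p-values of 0.655 and 0.388. Of 14 genes for syndecans and heparan sulfate all were tested, 1 was called lower, 0 called higher and the median was -0.31, with 11 below 0 and 3 above. The called gene was Sulf2, a sulfatase that edits heparan sulfate outside the cell, at 54.6, 82.5, 77.4 and 62.7 CPM with vehicle and 23.5, 26.2, 23.6 and 38.1 CPM with NAM/PN. Its groups did not overlap (log2 fold change -1.31, edgeR adjusted p = 0.0111). Without vehicle library 2 or NAM/PN library 1 that p was 0.0792 and 0.0523, and without pools 1, 2 and 3 it was 0.0708, 0.189 and 0.0887.

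Chrdl2 encodes chordin-like 2, a secreted BMP antagonist that serves as a marker of quiescent satellite cells (ENSMUSG00000030732, chromosome 7, 100006172 to 100034728, plus strand). It had 56, 4, 70 and 0 counts in vehicle libraries 1 to 4 and 0, 0, 2 and 0 counts in the NAM/PN libraries. In CPM, vehicle libraries 1 and 3 had 6.63 and 8.65, and every other library had 0.496 or less. Summed over libraries there were 130 counts with vehicle and 2 with NAM/PN, a ratio of 0.016 of NAM/PN to vehicle after depth (exact interval for counting error only, 0.00191 to 0.0588). The vehicle counts came almost wholly from pools 1 and 3, and vehicle library 4 had 0 counts as 3 of the NAM/PN libraries did. When genes were not filtered, the edgeR p of Chrdl2 was 0.0255 before and 0.366 after adjustment. The exact permutation test over libraries, which leaves out the pairing by pool, gave p = 0.143. Of 10 chordin and BMP antagonist genes 7 were tested and 1 was called lower. This was Fst, encoding follistatin, which binds activin and myostatin, at 23.7, 51.2, 24.6 and 44.8 CPM with vehicle and 7.88, 0.418, 6.09 and 2.80 CPM with NAM/PN (log2 fold change -3.07, edgeR adjusted p = 0.00894). Without vehicle library 2 or 4 that p was 0.0729 and 0.0599, and without pools 2 and 4 it was 0.0847 and 0.125.

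**Figure D3:**
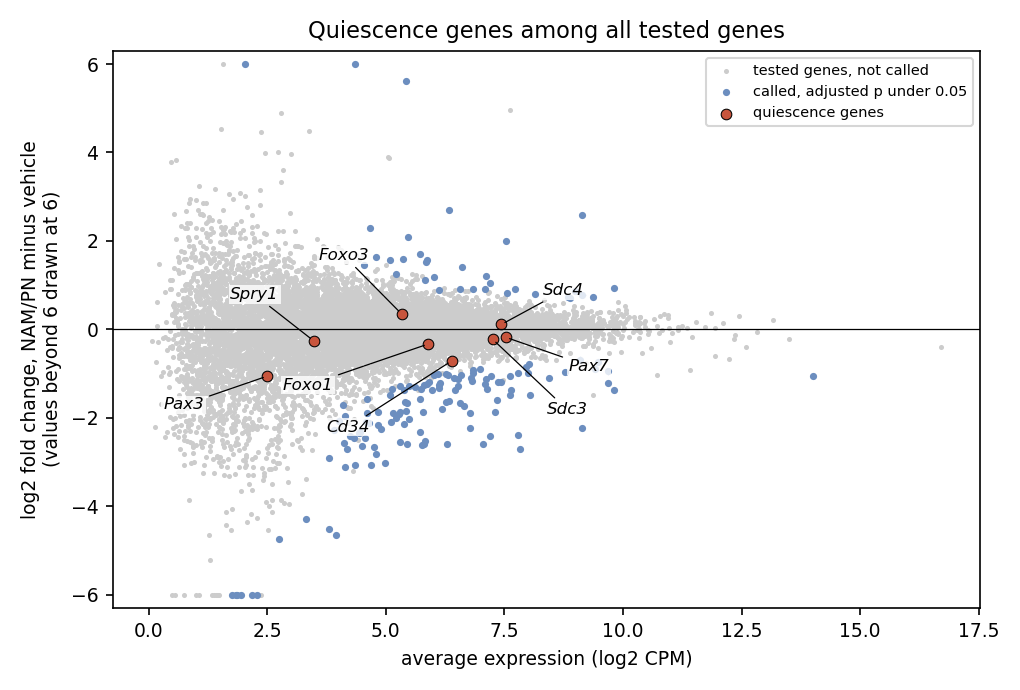
Average expression (x axis, log2 CPM) and log2 fold change of NAM/PN against vehicle (y axis) of 12060 tested genes. Grey points did not pass, blue points passed an adjusted p of 0.05 and red points are the 8 tested quiescence genes, which lie among the grey points with Cd34 at -0.71.

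Other genes reported to act in quiescence were read as a second list of genes outside the 10. Like the other lists it was chosen with earlier results of these data known, so its counts are a description only. Of its 32 genes 28 were tested, 3 were called lower, 0 called higher and the median log2 fold change was -0.48, with 21 below 0 and 7 above. Gas1, which restrains growth and responds to cell contact, had 95.2, 102, 100.4 and 93.4 CPM with vehicle and 41.5, 46.4, 41.7 and 39.0 CPM with NAM/PN. Within each condition Gas1 varied little, and the log2 fold change was -1.21 (edgeR adjusted p = 0.00269, or 0.0523 without pool 2). Dag1, the dystroglycan that links the cell to the basal lamina, was at 294 ± 49.0 and 149 ± 40.2 CPM (SD, n = 4 each; log2 fold change -0.98, edgeR adjusted p = 0.014). Without vehicle library 2 or 4 or NAM/PN library 1 or 3, its p was between 0.0607 and 0.085, and without pools 1, 2 and 4 it was 0.171, 0.0516 and 0.144. Cdkn1c, encoding the cyclin-dependent kinase inhibitor p57, had 37.9, 25.2, 22.7 and 68.2 CPM with vehicle and 5.17, 9.48, 16.6 and 5.14 CPM with NAM/PN. Its log2 fold change was -2.09 with an edgeR adjusted p of 0.0248, which became 0.0586 when the pool was entered as a replicate block. That p lay between 0.0585 and 0.243 without vehicle library 1 or 4 or NAM/PN library 1, 2 or 4, and it was 0.221, 0.138 and 0.323 without pools 1, 2 and 4. Cdkn1c is also raised in myoblasts that leave the cell cycle to differentiate.

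The lists of lineage, cycling and differentiation genes place the quiescence genes beside the state of the culture. Of 16 lineage genes 15 were tested, 1 was called lower (Ncam1, log2 fold change -1.22, edgeR adjusted p = 0.000147) and the median was -0.34. Ncam1 encodes a cell adhesion molecule that increases as myoblasts mature, and it was at 1148 ± 134 and 492 ± 46.4 CPM (SD, n = 4 each). All 12 activation and cell cycle genes were tested and 0 were called, with a median of 0.099. Birc5, encoding the mitotic protein survivin, had the smallest p of that list (log2 fold change 0.43, edgeR adjusted p = 0.322). All 15 differentiation genes were tested, 11 were called lower, 0 called higher and the median was -2.22. The smallest p-values were those of Cdkn1a, Myh3, Myog and Myl1, with log2 fold changes of -1.37, -2.33, -2.22 and -2.60 and edgeR adjusted p-values between 9.38e-05 and 0.000303. Ncam1 and these 4 genes passed in all 20 alternatives.

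**Figure D4:**
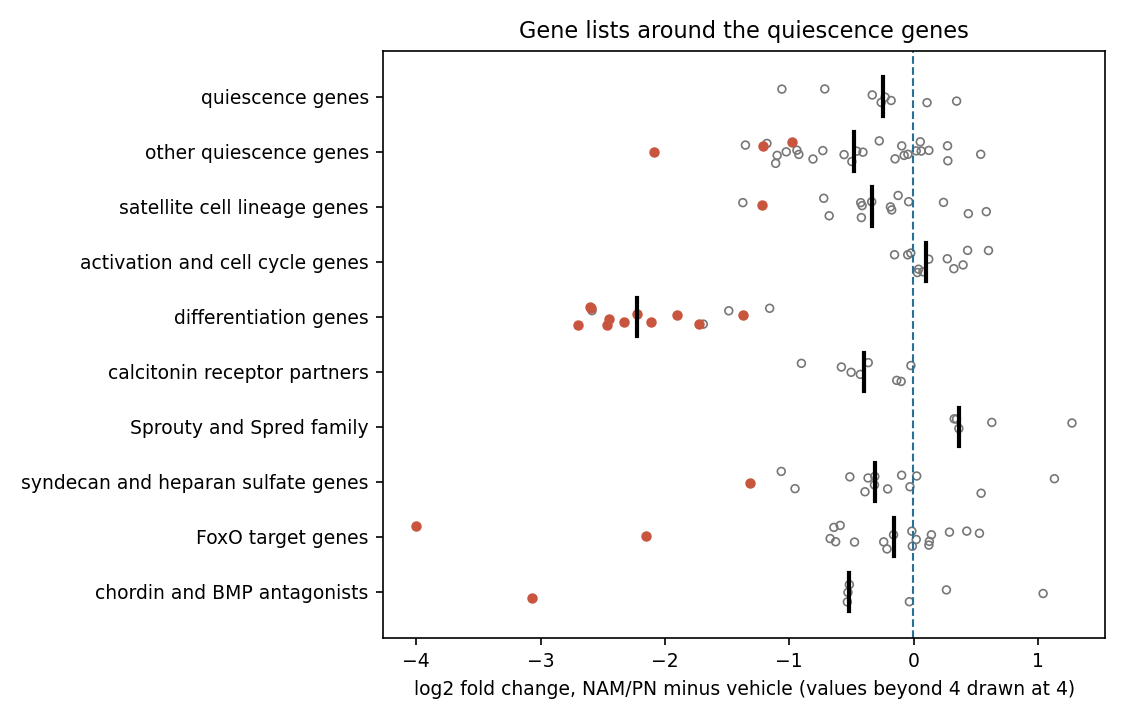
Log2 fold change of NAM/PN against vehicle (x axis) for the tested genes of 10 lists, 1 list per row. Filled points passed an adjusted p of 0.05, open circles did not, black bars are list medians and the dashed line is the median of all tested genes. The quiescence genes have 0 filled points and a median of -0.24, and the differentiation genes have 11 filled points and a median of -2.22.

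Because a ratio within a library does not depend on scaling between libraries, Pax7 was also set against Myod1 and Myog. The log2 ratio of Pax7 to Myod1, the factor of activated cells, was -3.05, -2.83, -2.20 and -3.16 with vehicle and -2.39, -2.51, -2.74 and -3.75 with NAM/PN. NAM/PN library 4 was again the lowest, and the other 3 NAM/PN libraries lay inside the vehicle range. The means differed by -0.038 (two-sided exact permutation test, p = 0.971), and by 0.16 and 0.26 without vehicle library 3 and without NAM/PN library 4. The log2 ratio of Pax7 to Myog, the factor of differentiating cells, was -2.03, -2.41, -1.20 and -3.03 with vehicle and 0.88, -0.25, 0.18 and -1.51 with NAM/PN. It was higher with NAM/PN in 4 of 4 pools, and the groups overlapped only between vehicle library 3 and NAM/PN library 4. The means differed by 1.99 on the log2 scale (exact permutation p = 0.0571). Without NAM/PN library 4, which took part in the only overlap, they differed by 2.44 (exact permutation p = 0.0286, the smallest then possible). An exact test of the 4 differences within pools gave p = 0.125, the smallest it allows. Myog passed the gene test by itself and Pax7 did not.

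**Figure D5:**
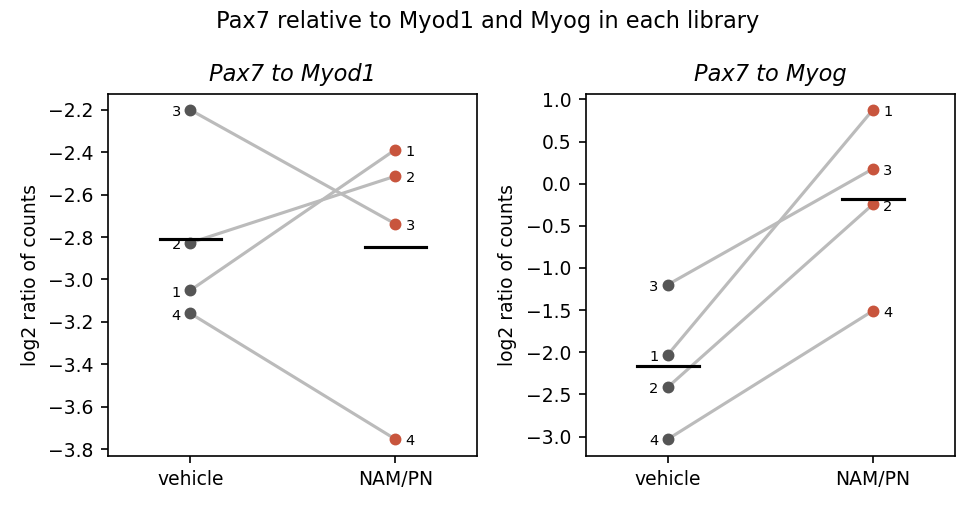
Log2 ratio of Pax7 counts to Myod1 counts and to Myog counts (y axes) in 4 vehicle and 4 NAM/PN libraries. Points are libraries numbered by pool, lines join libraries of the same pool and bars are means, which differ by -0.038 for Myod1 and by 1.99 for Myog.

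The genes whose log2 CPM followed that of Pax7 most closely over the 8 libraries, among 5220 genes with an average of at least 5 log2 CPM, were Tpr, Rexo4, Usp7, Ddx3x and Atrx. Their Pearson correlations were 0.99, 0.978, 0.978, 0.975 and 0.963, and their Spearman correlations 0.905, 1.00, 0.929, 0.952 and 0.857. All 5 genes were lowest in NAM/PN library 4, as Pax7 was. Without the 2 libraries farthest from the median of Pax7, Pearson's r fell to 0.858, 0.928, 0.757, 0.612 and 0.641. These correlations describe 8 libraries that share depth and library effects, and the 5 genes were picked as the highest of 5220.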

How the data were processed

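Expression was measured in 4 libraries of aged MuSCs per condition after 72 hours of culture. Per gene, the authors deposited unnormalized read counts from QuantSeq 3′ libraries, made with Bcl2FastQ, casava, RNASTAR and htseq-count on GRCm38. The annotation release, the strand setting and the treatment of reads with several matches are not given in the sources used here.

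Groups came from the library titles. Genes were filtered with filterByExpr (minimum count 10, minimum total 15), scaled by TMM and compared with glmQLFTest in edgeR 4.0.16 (R 4.3.3) at an adjusted p of 0.05, the design the study gives for muscle. Symbols and positions came from GENCODE M21 for 55141 of 55487 identifiers. The 10 genes and all lists were chosen with earlier results of these data known. Named genes were the 10, up to 4 called genes per list or the gene with the smallest p, close relatives, and the 5 genes most like Pax7. Log2 ratios used counts plus 2, and single-gene permutation tests a pseudocount of 1 CPM. The same pool number names the same mice, and libraries of a pool had deviations correlated between -0.033 and 0.031. Alternatives were the pool as a replicate block, DESeq2 1.42.0, limma 3.58.1 voomWithQualityWeights, other filters, scalings and thresholds, and leaving out each library or pool. No pair of libraries was a repeat (chi-square per degree of freedom at least 22.8). The gene test was tested on simulated data. Intervals cover counting error only where so stated.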

Additional observations from a re-analysis of the deposited data

Results flagged for a closer look

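Among 24 groups of 4 libraries examined for a library far from the rest (Dixon's ratio above its 95% critical value), 4 had one. Chance flags about 1 in 20 such groups, and in the groups of Calcr and Chrdl2 a single library above 0 against 3 at 0 gives the highest ratio by construction. Pax7 in NAM/PN library 4 was 97.3 CPM, and the other NAM/PN libraries lay between 196 and 199.9 CPM. For Spry1 the library apart was NAM/PN library 3, at 20.4 CPM against 5.98 to 6.97 CPM. Calcr had 1.31 CPM in vehicle library 4 and 0 in the other vehicle libraries. Chrdl2 had 0.305 CPM, from 2 counts, in NAM/PN library 3 and 0 in the other NAM/PN libraries.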

How the results depend on the processing

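The number of called genes was 154, and it became 388 with DESeq2, 366 without a filter on low counts, 232 with voomWithQualityWeights and duplicateCorrelation and 244 at an adjusted p of 0.10. Leaving out 1 library or pool gave 42 to 177 called genes, with the lowest number without pool 2. Of the quiescence genes 0 were called, or 0 to 1 when a library or pool was left out, the 1 being Cd34 without NAM/PN library 4 (-1.06) and without pool 4 (-1.19). Log2 fold changes over these omissions ranged from -0.33 to 0.016 for Pax7, -1.45 to -0.60 for Pax3, -1.14 to 0.16 for Spry1, -1.19 to -0.48 for Cd34, -0.38 to -0.12 for Sdc3, 0.0042 to 0.28 for Sdc4, -0.54 to -0.070 for Foxo1 and 0.079 to 0.65 for Foxo3. The sign turned for Pax7 without NAM/PN library 4 (0.016) and for Spry1 without pool 4 (0.16), and the other 6 genes kept theirs under all 20 alternatives. The Pax7 to Myod1 ratio ranged from -0.19 to 0.26 and turned sign without vehicle library 3 (0.16) and NAM/PN library 4 (0.26). The Pax7 to Myog ratio ranged from 1.64 to 2.44. Its exact permutation p was under 0.05 only without NAM/PN library 4 (2.44), in a test that leaves out the pairing by pool. The cause of these changes was not tested.

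With the pool as a replicate block, 156 genes were called, 33 higher and 123 lower, and 130 were shared with the fit without it. The block changed no call among the quiescence genes (Pax7 -0.22, Pax3 -1.32, Spry1 -0.42, Cd34 -0.80, Sdc3 -0.22, Sdc4 0.11, Foxo1 -0.34, Foxo3 0.33). Calcr and Chrdl2 had no fold change to vary, since they did not pass the filter. No scaling moved the median of all genes by more than 0.057 on the log2 scale. Library 4 with NAM/PN and library 3 with vehicle were examined for the gene lists after the data were seen, giving 18 and 15 called list genes in place of 19. At this depth Calcr and Chrdl2 had too few counts to test, while Pax3 had 5 to 96 and Spry1 41 to 160 counts per library.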
